A study of Mus musculus with 3 samples.

Results

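Rtl4 Cytl1 endothelial nuclei are a class of endothelial nuclei from the newborn mouse aortic valve and root, defined by UMIs (molecules counted by their molecular identifier) of Rtl4, Cytl1, Myrip and Gkn3. A nucleus entered the endothelial pool with at least 1000 UMIs, at most 5% mitochondrial UMIs, at least 4 of 8 endothelial genes detected (Pecam1, Cdh5, Ptprb, Tie1, Egfl7, Tek, Emcn and Erg), at most 1 UMI over the lymphatic genes Prox1 and Mmrn1, and under 0.5% of its UMIs from the cardiomyocyte genes Ryr2, Ttn, Myh6 and Tnnt2. It became a member with at least 2 UMIs over Rtl4, Cytl1, Myrip and Gkn3, provided this sum was above its UMIs of Grid1, Col23a1, Kcnc2, Wnt9b, Pthlh and Wnt4 together. These limits gave 865 members among 2557 endothelial nuclei and 21140 deposited nuclei. The genes of the rule were picked from an earlier clustering of these same nuclei, so they are described below without a test.

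The study profiled nuclear RNA of aortic valve structures from mice at postnatal day 1, in 3 pools of 22 to 24 aortic roots each. All 3 pools form 1 group of the same strain, which carries an EGFP allele at Scx (the gene of scleraxis, a tendon and valve transcription factor) on a B6 background. The zygosity, the sex of the pups and the number of litters are not given in the sources used here, and no pool lacks the allele. The pools are the replicates, and the nuclei within a pool are not.

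Endothelium lines the aortic root, the valve leaflets, the ventricular outflow and the small vessels of the heart wall, and each of these surfaces has its own gene programme. Arterial endothelium rests on elastic layers built of elastin, which is laid on a microfibril scaffold with the help of fibulins and crosslinked by lysyl oxidases, and the aorta makes most of its elastin before and after birth. Endothelial cells also store von Willebrand factor in Weibel-Palade bodies, granules that the small GTPase Rab27a and its partner Myrip tether to actin.

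Of the defining genes, Rtl4 is a retrotransposon-derived Gag-like gene, Cytl1 encodes a small secreted protein best known from cartilage, Myrip encodes the linker of Rab27a to myosin, and Gkn3 encodes a secreted gastrokine. RefSeq promoters (GRCm38.p6) were found for 3 of the 4. The 250 bases before each start are printed to show what the co-detected genes have next to their starts, with each GGAA core (the core of sites bound by ETS factors such as Erg, searched on both strands as GGAA and TTCC) in capitals.
Cytl1, chr5:37735269-37735518, plus strand: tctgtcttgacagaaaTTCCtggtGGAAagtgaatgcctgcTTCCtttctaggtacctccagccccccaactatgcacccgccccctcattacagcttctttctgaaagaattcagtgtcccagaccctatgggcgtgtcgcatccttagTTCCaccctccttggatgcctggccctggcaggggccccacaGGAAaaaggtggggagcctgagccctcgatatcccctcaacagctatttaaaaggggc
Gkn3, chr6:87388936-87389185, minus strand: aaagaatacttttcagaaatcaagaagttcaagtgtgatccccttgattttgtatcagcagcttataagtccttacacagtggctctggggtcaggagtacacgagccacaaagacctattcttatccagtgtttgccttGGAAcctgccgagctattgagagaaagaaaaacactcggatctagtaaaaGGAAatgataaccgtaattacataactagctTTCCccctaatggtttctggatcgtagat
Myrip, chr9:120303823-120304072, plus strand: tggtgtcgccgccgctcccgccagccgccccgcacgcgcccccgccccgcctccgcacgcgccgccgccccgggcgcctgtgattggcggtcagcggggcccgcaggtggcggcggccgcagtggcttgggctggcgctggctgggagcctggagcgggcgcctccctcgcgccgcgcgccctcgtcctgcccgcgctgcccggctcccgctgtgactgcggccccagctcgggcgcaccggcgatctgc
The core occurred 5 times before Cytl1, 3 times before Gkn3 and 0 times before Myrip. Of 32851 RefSeq promoters cut to the same length, 93.5% held it, with a median of 3 matches, so its presence does not set Cytl1 and Gkn3 apart.

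Rtl4 was detected in 72.3% of the members, Cytl1 in 67.3%, Myrip in 52.4% and Gkn3 in 45.3%. All 4 genes were detected together in 15.3% of members and only 1 of them in 20.9%, so most members were chosen on 2 or 3 genes. Of the members with Gkn3, 77.0% also had Cytl1 and 76.5% had Rtl4, not far above the shares over all members. In nuclei with at least 2% of UMIs from the cardiomyocyte genes, taken as a background, the shares were 1.18% for Rtl4, 2.47% for Cytl1, 0.505% for Myrip and 0.505% for Gkn3, at a median of 5389 UMIs per nucleus against 5241 in the members. The rule sets the shares in members, and the background shows how rarely these transcripts occurred in another cell type. In the other endothelial nuclei the shares were 16.5%, 21.7%, 11.9% and 12.8% in the same order, at a median of 4571 UMIs. Within endothelium the transcripts were thus not confined to the members.

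The rule sum had a median of 9 UMIs and a maximum of 172, and 71 members stood at the minimum of 2. At the edge, 88 endothelial nuclei with 1 such UMI and none of the competing genes stayed outside, and 399 had 2 or more but no more than their competing UMIs. In CPM (UMIs of a gene scaled to all UMIs of the summed nuclei), Eln stood at 14300 in the members with 2 UMIs, at 18467 in those with 3 or more and at 9674 in the 88 nuclei just outside. Trpc5 stood at 22.8, 118 and 1.63 CPM in the same order, and Aplnr at 7.59, 4.26 and 34.3 CPM. For Eln, Trpc5 and Aplnr the members at the minimum lay between the remaining members and these 88 nuclei, but the Aplnr value of the former and the Trpc5 value of the latter are no higher than 3 UMIs give, so the order of Aplnr and the size of the Trpc5 gap rest on few counts. The 399 nuclei outside did not follow that order: Eln stood at 8178 CPM, Trpc5 at 23.4 CPM, level with the members at the minimum, and Aplnr at 17.6 CPM. Hs3st4 stood at 7.59 CPM in the members with 2 UMIs and 8.71 CPM in those with 3 or more, at 0 in the 88 nuclei (a count of 0 allows up to 4.90 CPM) and at 67.2 CPM in the 399.

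**Figure D1:**
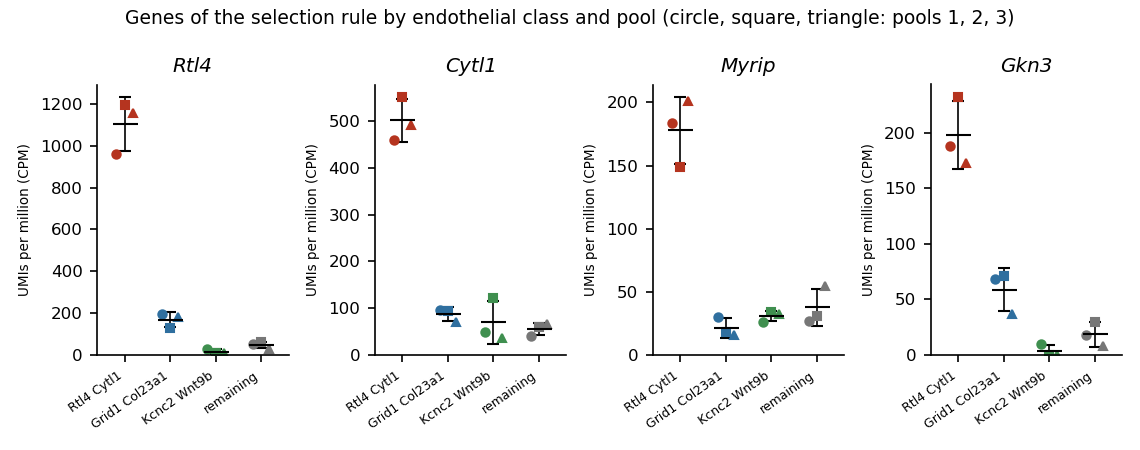
Level of the 4 defining genes in CPM for each endothelial class and pool. Points are pools, horizontal bars are means and whiskers are the SD over 3 pools; Rtl4 averaged 1104 CPM in the members and 168 CPM in the Grid1 Col23a1 class, a difference that the rule itself makes.

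How far the 4 genes go together was described by calling members from 3 of them and reading the fourth. Rtl4 was then at 818 ± 102 CPM (SD, n = 3 pools) in the 569 nuclei called without it and at 326 ± 52.7 CPM in the other endothelial nuclei. Cytl1 stood at 449 ± 77.0 against 133 ± 22.9 CPM, Myrip at 141 ± 15.1 against 53.2 ± 7.74 CPM, and Gkn3 at 183 ± 30.7 against 45.6 ± 15.3 CPM. The 4 genes were picked together from 1 clustering of these nuclei, which fixes this direction, so the values only describe how large the overlap was. Among the 15 nearest endothelial nuclei of a member, in 20 principal components computed without the rule genes, 62.1% ± 3.39 were members, compared with 27.2% ± 2.85 around the 607 endothelial nuclei of no class, 19.4% ± 3.43 around Grid1 Col23a1 nuclei and 15.6% ± 3.41 around Kcnc2 Wnt9b nuclei. That clustering also used most of the genes behind these components, so the shares are a description as well.

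Members made up 38.3% of the endothelial nuclei in pool 1 (500 of 1306, 95% Wilson interval 35.7 to 41.0), 31.4% in pool 2 (199 of 633, 27.9 to 35.2) and 26.9% in pool 3 (166 of 618, 23.5 to 30.5). The mean was 32.2% ± 5.75 (SD, n = 3), and intervals cover counting error only. Median UMIs per member were 5469, 6028 and 3818 in the 3 pools, and 5241 over all members against 4571 over the other endothelial nuclei. With every endothelial nucleus thinned to 1000 UMIs, the rule took 18.91%, 15.01% and 16.50% in pools 1 to 3, a mean of 16.8%, so pool 1 still had the highest share and pools 2 and 3 changed places.

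Cdh5 (VE-cadherin) and Pecam1 are among the genes that admitted nuclei to the endothelial pool, so their presence is no check of the label: Cdh5 stood at 287 ± 27.8 CPM in members and 313 ± 36.2 CPM in the other endothelial nuclei, and Pecam1 at 1421 ± 26.7 and 828 ± 81.0 CPM. Of endothelial genes that the rule did not use, Flt1 (VEGF receptor 1) stood at 354 ± 36.2 CPM in members and 731 ± 82.5 CPM in the others, and Eng (endoglin) at 333 ± 44.5 and 667 ± 97.4 CPM. Members summed to 3645256, 1403087 and 745457 UMIs in pools 1 to 3. Of 21140 deposited nuclei, 398 carried a barcode found in more than 1 pool (198 barcodes), and 12 of these nuclei were members. Among the highest doublet scores were 95 members (11.0%) and 183 other endothelial nuclei (10.8%). The summed level of 6 smooth muscle markers ranged over pools from 283 to 751 CPM in members and from 503 to 894 CPM in the other endothelial nuclei, with no marker at 0; none was higher in members and Acta2 was lower (edgeR; 0 higher and 5 lower at an unadjusted p under 0.05, and 0 called by DESeq2). The 6 fibroblast markers summed to 2361 to 4035 CPM in members against 2112 to 3445 CPM, with Col1a2 and Col3a1 higher and Pdgfra and Dcn lower. Mesothelial markers summed to 24.2 to 49.9 against 84.0 to 139 CPM, with 3 of 4 lower, and cardiomyocyte markers to 204 to 420 against 324 to 529 CPM. UMIs of these markers thus occurred in both classes, and their source was not tested. One alternative fit left out nuclei with 3 or more UMIs of smooth muscle, fibroblast, valve interstitial, pericyte and macrophage markers, which kept 112 members and 313 others. Another, chosen after seeing the data, left out nuclei with 2 or more UMIs of 4 smooth muscle genes.

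Against the other 1692 endothelial nuclei, counts summed per pool and class were compared with edgeR's quasi-likelihood test, with the pool as a block. Eln, Fbln5 and Lox were higher in members, within an elastic fibre list of 6 higher and 3 lower genes of 15, and so were Gja5 and Bmx, within an arterial list of 7 higher and 3 lower of 18, while most capillary, endocardial and basement membrane genes were lower. At an adjusted p under 0.05, 1477 of 12691 genes outside the rule differed (11.6%), 757 higher in members (5.96%) and 720 lower (5.67%). Because the rule genes came from a clustering that used most genes, these p-values say how far a difference repeated over 3 pools and are no independent test that the class exists. The count fell to 283 of 4499 genes among the 112 members and 313 others with few UMIs of other cells, 249 of them among the 1477 and with the same direction. Without nuclei with 2 smooth muscle UMIs it was 1419, of which 1205 were among the 1477 with the same direction and 1 with the opposite one. Of the list and named genes called, 84 of 134 could be tested among nuclei with few UMIs of other cells, of which 40 kept their calls, 41 lost them and 3 changed sign. DESeq2 kept 91 of the 134 and lost 43.

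Trpc5, a calcium-permeable cation channel, had the largest rise among the genes named by a fixed rule of size (the 15 largest rises and 10 largest falls with at least 20 CPM in the higher class and 1 direction in all pools). It stood at 121, 90.5 and 103 CPM in the members of pools 1 to 3 and at 8.54, 5.89 and 16.4 CPM in the others, a log2 fold change of 3.56 ± 0.19 (SE; adjusted p = 3.16e-10, edgeR). The lowest member pool was well above the highest other pool. Sfrp1, a secreted antagonist of Wnt ligands, was nearly constant over the members of the pools at 234, 239 and 244 CPM, against 49.5, 43.9 and 45.3 CPM, a log2 fold change of 2.40 ± 0.10 (adjusted p = 1.04e-11).

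Among those 15 were also Cacna2d3, an auxiliary subunit of voltage-gated calcium channels (162 ± 50.3 against 28.4 ± 4.35 CPM, log2 fold change 2.53), and Atp2b2, a plasma membrane calcium pump (74.5 ± 17.1 against 14.1 ± 0.95 CPM, 2.44). Atp2b2 kept its direction but not its call among nuclei with few UMIs of other cells (1.47, adjusted p = 0.078). Further genes were Pcdh10, a protocadherin (log2 fold change 2.81), Ctnnd2, which encodes delta-catenin (2.54), Lamc3, a laminin gamma chain (2.59), and Spock3, a testican proteoglycan (2.63). Sod3, the extracellular superoxide dismutase, stood at 44.1 ± 1.17 against 6.75 ± 3.62 CPM (2.58), and Hhip, which binds hedgehog ligands, at 25.9 ± 19.3 against 6.11 ± 0.80 CPM (2.03). The remaining 5 were Fam135b (3.09), Dlx6os1 (2.56), Arfgef3 (2.41), Pak5, a p21-activated kinase (2.27), and Dcdc2a, a doublecortin-domain gene (2.13). Without pool 1 the rise was 3.12 for Pak5 and 2.73 for Dcdc2a. Dlx6os1 lies antisense to Dlx6, and the sources used here do not state that counting used strand, so reads of the pair cannot be told apart.

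The largest fall was that of Hs3st4, a heparan sulfate sulfotransferase, at 9.33, 10.7 and 1.34 CPM in members of pools 1 to 3 and 45.1, 162 and 107 CPM in the others (log2 fold change -3.20 ± 0.27, adjusted p = 9.32e-08, edgeR). Aplnr, the apelin receptor of venous and sprouting endothelium, stood at 4.12, 7.84 and 0 CPM against 34.0, 45.9 and 44.3 CPM (-3.04 ± 0.29). The groups did not overlap for either gene. Sema3a, a secreted guidance cue, was at 23.6 ± 8.36 against 146 ± 19.5 CPM (-2.62), and Nts, which encodes neurotensin, at 8.53 ± 1.58 against 78.4 ± 11.3 CPM (-2.99). Nts was high in Kcnc2 Wnt9b nuclei (339 ± 65.0 CPM) and did not pass against Grid1 Col23a1 nuclei alone. Falls of like size were those of Adamts8, a secreted protease (-2.85), Ptprt, a receptor phosphatase (-2.69), Pcdh17, a protocadherin (-2.66), Enox1 (-2.63) and Ly6c1 (-2.56), whose reads a near-identical neighbour may share. The size of some falls rested on pool 1: without it they were -4.22 for Hs3st4, -5.21 for Pcdh17 and -2.10 for Ptprt. Pcdh17 had 98, 5 and 1 UMIs in the members of pools 1 to 3, or 10.6 ± 14.1 CPM against 104 ± 13.4 CPM. Each of the 25 genes kept its call in every fit that left out 1 pool, and 24 kept it under every alternative in which they could be tested, Atp2b2 being the exception. Among nuclei with few UMIs of other cells 13 of the 25 could not be tested.

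**Figure D2:**
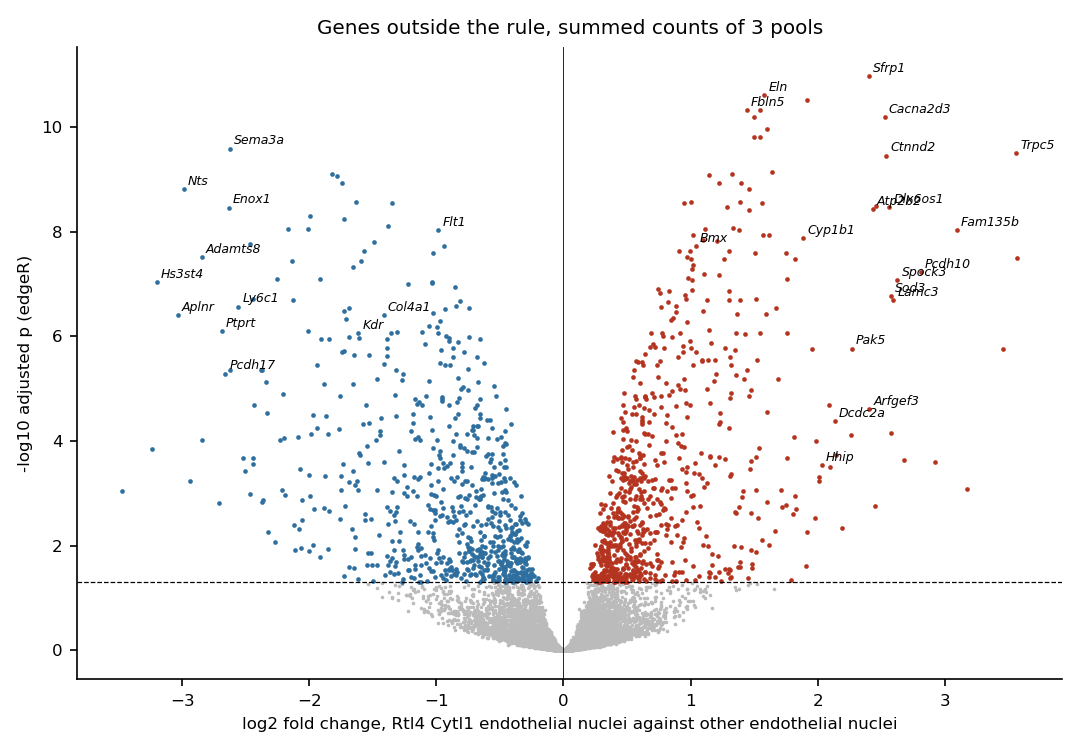
Each point is a gene outside the rule; the x axis is its log2 fold change between members and other endothelial nuclei and the y axis the -log10 adjusted p from edgeR, with the dashed line at 0.05. Red points (757) are higher and blue points (720) lower in members; Trpc5 and Hs3st4 lie far out on either side, and Eln and Fbln5 are among the smallest p-values.

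Elastic fibre genes were split. Of 15 tested, 6 were higher in members, 3 lower and 6 did not pass, with a median log2 fold change of 0.09 against 0.00 over all genes. Eln, the gene of tropoelastin, stood at 18837, 18075 and 15187 CPM in the members of pools 1 to 3 and at 7536, 6501 and 4422 CPM in the others, a log2 fold change of 1.58 ± 0.07 (adjusted p = 2.44e-11, edgeR). No pool of the others came near the lowest member pool. Fbln5 (fibulin-5), which binds tropoelastin and guides it onto the fibre, was at 1700, 1575 and 1406 CPM against 701, 609 and 488 CPM (1.44 ± 0.07, adjusted p = 4.77e-11). Eln and Fbln5 kept their calls under every alternative.

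Lox, the lysyl oxidase that crosslinks elastin, followed at 261 ± 25.4 against 114 ± 32.4 CPM (1.23 ± 0.10), and Mfap5, a microfibril glycoprotein, at 284 ± 30.1 against 127 ± 18.5 CPM (1.21 ± 0.09). Ltbp4, which fibulin-5 and elastin assembly depend on, was at 513 ± 102 against 330 ± 80.1 CPM (0.70), and Ltbp3, a latent TGF-beta binding protein, at 199 ± 19.7 against 133 ± 40.7 CPM (0.61). The lower genes were Fbn2, the fibrillin of developing microfibrils (-0.56), Ltbp1 (-0.37) and Loxl2 (-0.67). Loxl2 lost its call without pool 1 (-0.48, adjusted p = 0.40). Among nuclei with few UMIs of other cells the difference was 0.66 for Lox (adjusted p = 0.20) and 0.11 for Ltbp4 (adjusted p = 0.87), and that of Ltbp1 changed sign (0.12, adjusted p = 0.84).

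From the genes kept out of the clustering that gave the rule genes, 26 were listed here and 20 could be tested. Eln, Fbln5 and Jag1 were higher in members, and Fbn2, Gata4, Gata5, Robo4 and Acan were lower, so 8 of 20 differed, beside 11.6% of all genes. Jag1, a Notch ligand, was at 361 ± 33.0 against 248 ± 30.6 CPM (0.59), and Robo4, an endothelial roundabout receptor, at 6.01 ± 1.46 against 24.3 ± 2.71 CPM (-1.77). These genes were set aside for their role in valves and vessels, so their share is a description and not a random draw.

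**Figure D3:**
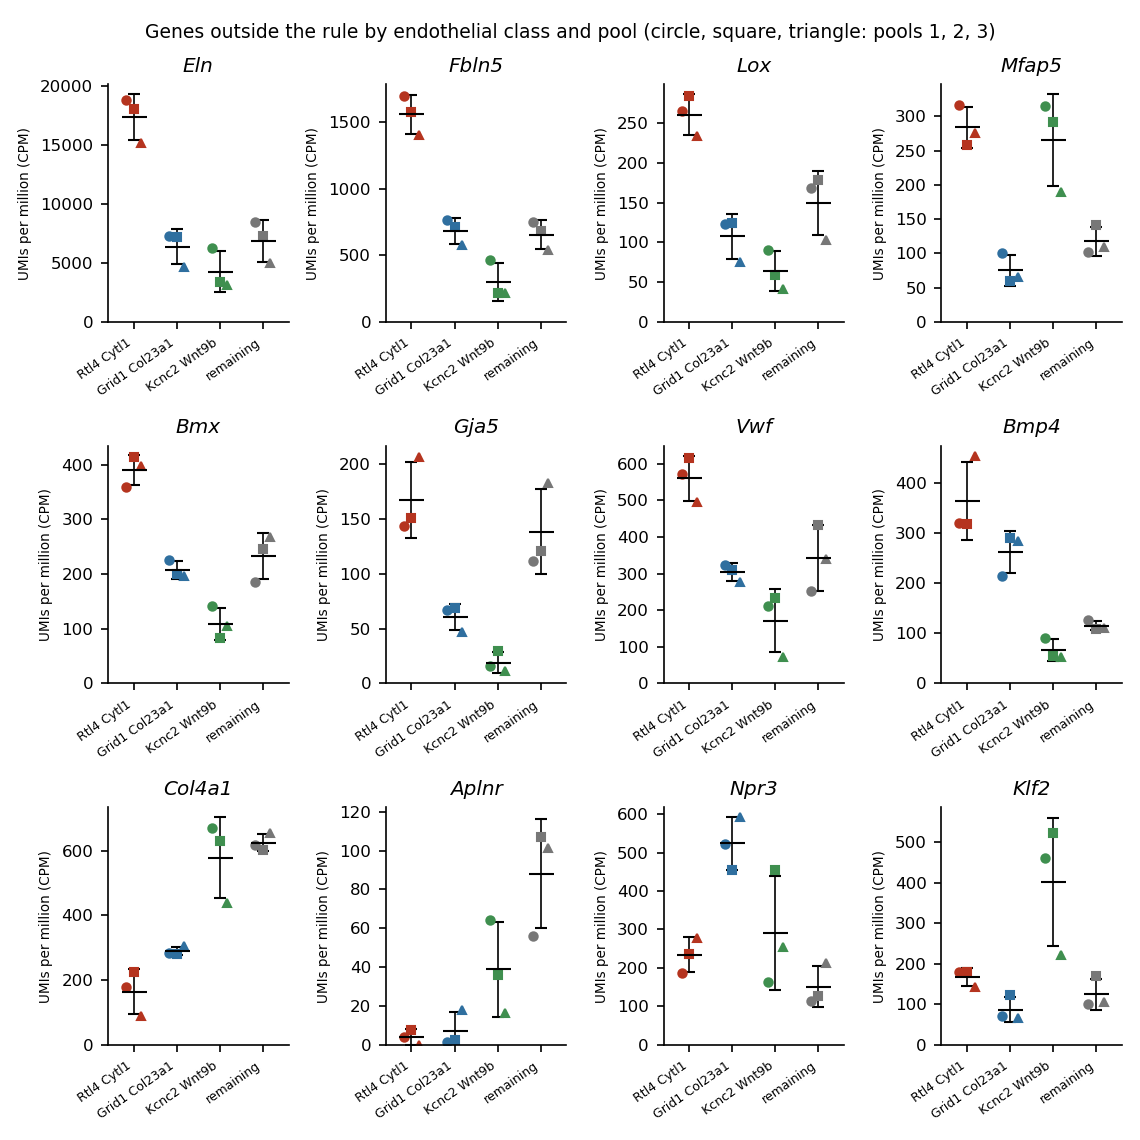
Level in CPM of 12 genes outside the rule in the 4 endothelial classes (members, Grid1 Col23a1, Kcnc2 Wnt9b and the remaining nuclei). Points are pools, horizontal bars are means and whiskers are the SD over 3 pools; Eln, Fbln5, Lox and Bmx are highest in the members in all 3 pools, Col4a1 and Aplnr are lowest there on average, and Klf2 lies between the Grid1 Col23a1 and the Kcnc2 Wnt9b class.

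More arterial genes were higher than lower in members, and capillary genes were lower. Of 18 arterial genes, 7 were higher and 3 lower (median log2 fold change 0.17), and of 10 capillary genes tested, 9 were lower (median -1.67). Bmx, a kinase of arterial endothelium, stood at 360, 413 and 397 CPM in the members of pools 1 to 3 and at 194, 195 and 199 CPM in the others (1.04 ± 0.08, adjusted p = 1.89e-08, edgeR). Gja5 (connexin 40), a gap junction gene of arteries, was at 144, 150 and 207 CPM against 74.0, 79.6 and 82.7 CPM (1.10 ± 0.10). In both genes every member pool was above every other pool. Within the others, the 607 nuclei of no class stood nearer the members, with Gja5 at 112, 120 and 183 CPM and Bmx at 185, 247 and 267 CPM, so the pools overlapped for Gja5. Sox17, Dll4 and Sema3g averaged 93.8, 25.2 and 59.9 CPM in those 607 and 69.8, 18.7 and 24.3 CPM in members.

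The other higher arterial genes were Fbln2 (1192 ± 86.0 against 535 ± 103 CPM, 1.22), Clu (0.96), Ltbp4, Mecom (0.39) and Efnb2, the ephrin of arteries (0.30). Efnb2 was not particular to the members: it averaged 734 ± 48.8 CPM in Grid1 Col23a1 nuclei and 641 ± 67.1 CPM in members. The lower ones were Jag2 (-1.04), Unc5b (-0.44) and Vegfc (-0.34). Jag2 and Vegfc lost their calls without pool 2 (adjusted p = 0.071 and 0.22), and Unc5b without pool 1 or pool 2 (0.058 and 0.056). Among nuclei with few UMIs of other cells, the values were 0.32 for Fbln2 (adjusted p = 0.37), 0.70 for Gja5 (0.12), 0.62 for Clu (0.26) and 0.02 for Efnb2 (0.99), while Bmx kept its call.

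Among capillary genes, Kdr (VEGF receptor 2) stood at 40.9, 26.4 and 25.5 CPM in members of pools 1 to 3 against 96.5, 115 and 124 CPM (-1.62 ± 0.16, adjusted p = 8.57e-07, edgeR). Gpihbp1, which carries lipoprotein lipase to the capillary lumen, was at 4.94 ± 4.28 against 34.1 ± 4.82 CPM (-2.34), and Cd36, a fatty acid transporter, at 102 ± 26.5 against 300 ± 81.5 CPM (-1.39). Tcf15 (-2.44), Btnl9 (-2.46), Cd300lg (-2.08), Rgcc (-1.72) and Meox2 (-0.71) were lower too. Without pool 1 the differences were -2.94 for Gpihbp1, -2.74 for Cd300lg and -3.09 for Rgcc, and Btnl9 had all of its 19 member UMIs in pool 1. Aqp1, the water channel, passed at -0.38 and lost its call without pool 1 (adjusted p = 0.39) or pool 2 (0.32). The others hold 607 nuclei of neither the Grid1 Col23a1 nor the Kcnc2 Wnt9b class, and capillary genes were high in that remainder: Kdr averaged 197 CPM there.

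Of 7 venous genes tested, 2 were higher and 4 lower in members. Nr2f2, the transcription factor of venous identity, was at 38.7 ± 6.65 against 82.4 ± 9.03 CPM (-1.15), Nrp2 at 15.2 ± 6.85 against 104 ± 11.3 CPM (-2.47, or -3.13 without pool 1) and Flt4 at 8.46 ± 0.37 against 26.1 ± 2.34 CPM (-1.58), with Aplnr as given above. The higher 2, Vwf and Selp, are also cargo of Weibel-Palade bodies. Against Grid1 Col23a1 nuclei alone, 1 of the 7 was higher (Vwf) and 1 lower (Flt4), with a median of -0.20. In that comparison 10.3% of all genes differed.

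Of 12 Weibel-Palade genes tested, 5 were higher in members (median log2 fold change 0.37). Vwf (von Willebrand factor) was at 571, 615 and 495 CPM against 275, 339 and 254 CPM in the others of pools 1 to 3 (1.02 ± 0.07, adjusted p = 1.13e-08, edgeR), with no overlap between the groups. Rab27a, the GTPase that Myrip binds, was at 51.4 ± 5.64 against 32.7 ± 2.76 CPM (0.74), Stxbp5 at 282 ± 43.8 against 209 ± 13.1 CPM (0.48) and Unc13b, a vesicle priming factor, at 577 ± 99.7 against 431 ± 48.2 CPM (0.46). Rab27a lost its call without pool 1 (0.63, adjusted p = 0.089), and Selp (P-selectin, 1.07) without pool 1 (adjusted p = 0.59) or pool 3 (0.085). Vwf was 0.42 higher (adjusted p = 0.27) among nuclei with few UMIs of other cells. Against Grid1 Col23a1 nuclei alone 1 of the 12 was higher and 1 lower, where 10.3% of all genes differed. Against Kcnc2 Wnt9b nuclei 4 were higher, beside 6.46% of all genes.

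Endocardial genes were mostly lower: of 14, 3 were higher and 9 lower (median log2 fold change -0.49). Npr3, a natriuretic peptide receptor of endocardium, was at 187, 237 and 278 CPM in members of pools 1 to 3 and at 300, 338 and 399 CPM in the others (-0.52 ± 0.08, adjusted p = 9.33e-05, edgeR). The highest member pool was just below the lowest other pool. Tmem108 was at 180 ± 47.5 against 483 ± 116 CPM (-1.38), Nfatc1, the transcription factor of valve endocardium, at 85.4 ± 8.52 against 161 ± 6.81 CPM (-0.89), and Nrg1 at 133 ± 30.4 against 350 ± 157 CPM (-1.22). Gata4 (-0.67) and Gata5 (-1.52) were lower, while Gata6 was higher at 569 ± 52.0 against 383 ± 12.3 CPM (0.62). Gata5 lost its call without pool 1 (-1.17, adjusted p = 0.18). Smoc1, a secreted modulator of BMP signalling, and Adgrg6, an adhesion receptor, were the other higher genes (0.83 and 0.91). The 607 nuclei of no class were below the members on average in Npr3 (152 against 234 CPM), Nrg1 (92.2 against 133 CPM), Cdh11 (514 against 635 CPM) and Hand2 (29.4 against 39.6 CPM), so for these 4 genes the higher level of the others came from Grid1 Col23a1 and Kcnc2 Wnt9b nuclei.

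Valve endothelial genes followed with 2 of 10 higher and 6 lower (median -0.93). Hapln1, which links hyaluronan to proteoglycans in the cushions, was at 14.6 ± 5.25 against 72.3 ± 8.73 CPM (-2.25), Ednrb at 50.2 ± 33.4 against 97.4 ± 33.9 CPM (-0.996) and Nppc at 5.54 ± 5.71 against 19.4 ± 9.30 CPM (-1.69). Nppc was high in Kcnc2 Wnt9b nuclei (95.4 ± 53.1 CPM), while Grid1 Col23a1 nuclei stood at 0.93 ± 0.86 CPM, or 3 UMIs in all, with members higher in 2 of 3 pools and at 0 UMIs in pool 3. Against that class 1 of 9 valve genes was higher and 3 lower (median 0.48), beside 6.12% and 4.14% of all genes. Bmp4, a BMP ligand, went the other way: 319, 319 and 453 CPM in members of pools 1 to 3 and 157, 182 and 179 CPM in the others (1.10 ± 0.09, adjusted p = 6.42e-08, edgeR). Foxc2 was higher as well, at 30.7 ± 5.86 against 17.4 ± 2.91 CPM (0.84).

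Basement membrane genes were lower in members: 8 of 13 were lower and 1 was higher (median -0.32). Col4a1, a main chain of collagen IV, was at 177, 226 and 89.9 CPM in members of pools 1 to 3 and at 484, 460 and 445 CPM in the others (-1.42 ± 0.13, adjusted p = 3.87e-07, edgeR), without overlap. Col4a2 (-1.39), Lama4, the laminin alpha chain of endothelium (303 ± 45.2 against 611 ± 80.4 CPM, -0.92), and Nid2 (-1.05) were lower in every fit that left out 1 pool. Col15a1 (-1.01), Col18a1 (-0.39), Lamb1 (-0.32) and Lamc1 (-0.31) lost the call in at least 1 of those fits: Col15a1 without pool 1 (adjusted p = 0.051), Col18a1 without pool 3 (0.087), Lamb1 without pool 1 or 3 (0.23 and 0.12) and Lamc1 without any 1 of the 3 (0.11, 0.054 and 0.069). Sparc, a collagen-binding matricellular protein, was the higher gene (0.56), and was lower among nuclei with few UMIs of other cells (-0.43, adjusted p = 0.20).

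Of the signalling lists, Notch and BMP and TGF-beta genes were divided, and more VEGF, angiopoietin and PDGF genes were lower than higher. In the Notch list 3 of 17 were higher (Jag1, Dll1 and Hey2) and 2 lower (Maml3 and Jag2); Dll1 lost its call without pool 1 (adjusted p = 0.23) and Maml3 without pool 2 (0.17). In the BMP and TGF-beta list 4 of 26 were higher and 4 lower: Eng, a co-receptor, was at 333 ± 44.5 against 667 ± 97.4 CPM (-0.94), Tgfbr3 at 73.7 ± 10.2 against 134 ± 21.4 CPM (-0.76) and Smad1 at 91.0 ± 9.24 against 154 ± 6.89 CPM (-0.71), while Bmp4 was higher. In the VEGF, angiopoietin and PDGF list 1 of 13 was higher and 7 lower (median -0.34). Flt1 stood at 354 ± 36.2 against 731 ± 82.5 CPM (-0.99) and Pdgfb at 17.1 ± 3.21 against 60.5 ± 16.8 CPM (-1.71), whereas Pdgfd was higher at 772 ± 179 against 530 ± 75.2 CPM (0.57).

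Axon guidance genes, which also steer endothelial cells, divided into 5 higher and 7 lower of 21 (median -0.21). Epha4 (0.62), Plxna2 (0.53), Slit2 (0.53) and Robo1 (0.50) were higher and Epha7 (644 ± 72.8 against 1378 ± 327 CPM, -0.997), Unc5c (-0.59) and Robo4 lower. Of 15 shear response genes tested, 2 were higher and 3 lower, among them Cyp1b1, a flow-responsive cytochrome, at 112 ± 24.5 against 30.5 ± 1.80 CPM (1.89 ± 0.14). Of 13 genes of endothelial to mesenchymal transition, 2 were higher and 3 lower; Twist1 was at 24.0 ± 6.18 against 9.88 ± 3.10 CPM (1.32). None of 12 cell cycle genes passed in edgeR (3 higher at an unadjusted p under 0.05) or DESeq2, and after thinning to 1000 UMIs 4.86% of members and 5.20% of the others had 2 or more UMIs over those 12 genes (16.0% and 16.6% unthinned). The share in cardiomyocyte nuclei was 1.01%. Against Grid1 Col23a1 nuclei, a class described next, 3 of the 12 were higher in members (median 0.79): Ccnb1 (1.97, adjusted p = 0.0363), Cenpe (0.96, adjusted p = 0.0208) and Anln (0.70, adjusted p = 0.0443, edgeR), with a thinned share of 2.77% in that class. DESeq2 called none of these 3 (adjusted p = 0.0828, 0.0845 and 0.121). Cenpe lost its call without pool 1 or 3, Ccnb1 without pool 2 or 3 and Anln without any 1 pool.

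The members were next set beside 2 classes chosen by the mirror image of the rule: 831 nuclei led by Grid1 and Col23a1, and 254 led by Kcnc2, Wnt9b, Pthlh and Wnt4. Against the Grid1 Col23a1 class 1140 of 11116 genes differed (10.3%), 680 higher in members (6.12%) and 460 lower (4.14%). Against the Kcnc2 Wnt9b class 1594 differed (14.3%), 718 higher (6.46%) and 876 lower (7.88%). Both comparisons use the same member sums, so the 2 differences are given side by side as values. Without pool 1 the counts were 539 and 988, and without pool 2 they were 543 and 1003.

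Eln, Fbln5 and Lox were higher in members than in either class. Eln averaged 6371 ± 1489 CPM in the Grid1 Col23a1 class and 4255 ± 1755 CPM in the Kcnc2 Wnt9b class, which put the members 1.499 ± 0.14 and 2.12 ± 0.14 higher on the log2 scale (adjusted p = 2.33e-06 and 2.78e-08, edgeR). Fbln5 was 1.22 and 2.42 higher, and Lox 1.30 and 2.00 higher. Mfap5 was 1.91 higher than in the Grid1 Col23a1 class (75.0 ± 22.7 CPM), but stood at 284 ± 30.1 CPM in members and 266 ± 66.8 CPM in the Kcnc2 Wnt9b class. Of 14 elastic fibre genes tested, 5 were higher and 2 lower against Grid1 Col23a1 nuclei, and 6 higher and 1 lower against Kcnc2 Wnt9b nuclei. The lower genes were Fbn2 (-0.72) and Ltbp1 (-0.90) in the first comparison and Loxl2 (-0.99) in the second; Fbn2 and Loxl2 lost these calls without any 1 pool (adjusted p from 0.0678 to 0.104 and from 0.0501 to 0.141). Fibroblast markers moved with these genes in part: of 6, Col1a2 was higher (0.99) and Pdgfra (-1.10) and Dcn (-0.82) lower against Grid1 Col23a1 nuclei, and Col1a1 (0.88), Col1a2 (1.10) and Col3a1 (0.73) were higher against Kcnc2 Wnt9b nuclei, as was Pdgfrb, 1 of 4 pericyte markers tested (0.74). Among nuclei with few UMIs of other cells the differences from the 2 classes were 1.33 and 3.29 for Eln (adjusted p = 0.00177 and 5.54e-08), 1.20 and 3.79 for Fbln5 (0.0196 and 2.28e-06) and 1.07 and 3.12 for Lox (0.15 and 0.00269).

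Of 18 arterial genes, 10 were higher in members than in the Kcnc2 Wnt9b class (median log2 fold change 1.12), and 6 were higher and 2 lower than in the Grid1 Col23a1 class (median 0.28). Gja5 was 1.40 and 3.16 higher in members than in the Grid1 Col23a1 and the Kcnc2 Wnt9b class, Bmx 0.92 and 1.81 higher, and Fbln2 1.28 and 1.76 higher. Gja4 (connexin 37) was 0.72 lower than in the Grid1 Col23a1 class (log2 fold change -0.72, lost without pool 1 at adjusted p = 0.063) and 2.01 higher than in the Kcnc2 Wnt9b class. Nrp1, a co-receptor of VEGF and semaphorins, was the other lower gene against the Grid1 Col23a1 class (1311 ± 84.8 against 1826 ± 130 CPM, -0.45, adjusted p = 0.00858, edgeR, lost without pool 1 at adjusted p = 0.113) and was higher against the Kcnc2 Wnt9b class (1.26). Mecom (1.34) and Efnb2 (1.28) were higher against the latter.

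Endocardial genes were more often lower than higher against both classes, 9 lower and 1 higher of 14 against Grid1 Col23a1 nuclei and 8 lower and 4 higher against Kcnc2 Wnt9b nuclei. Npr3 averaged 524 ± 68.6 CPM in the Grid1 Col23a1 class, with members 1.18 lower (log2 fold change -1.18, adjusted p = 0.00201, edgeR). Gata4 differed by -0.74 and -1.26, and Eng by -1.28 and -1.10. Bmp6, an endocardial BMP ligand, lay between them: 1277 ± 286 CPM in members, 1979 ± 202 CPM in Grid1 Col23a1 nuclei (-0.63) and 256 ± 51.5 CPM in Kcnc2 Wnt9b nuclei (2.31). Its difference from Grid1 Col23a1 nuclei was lost without pool 2 (-0.51, adjusted p = 0.0556).

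Of 15 shear response genes tested, 6 were higher and 1 lower in members against Grid1 Col23a1 nuclei, and 2 higher and 6 lower against Kcnc2 Wnt9b nuclei. Klf2, a transcription factor induced by laminar shear, was at 180, 180 and 142 CPM in members of pools 1 to 3, at 72.2, 123 and 65.2 CPM in Grid1 Col23a1 nuclei and at 462, 522 and 222 CPM in Kcnc2 Wnt9b nuclei, so members were higher by 1.03 ± 0.18 than the first (adjusted p = 0.00112) and differed by -1.21 ± 0.17 from the second (adjusted p = 6.93e-05, edgeR). Klf4 differed by 1.53 and -1.58. Edn1, the endothelin ligand that shear represses, showed the reverse order, with 221 ± 37.7 CPM in members, 347 ± 47.9 CPM in Grid1 Col23a1 nuclei (-0.63) and 54.8 ± 9.75 CPM in Kcnc2 Wnt9b nuclei (1.96). The Edn1 difference from Grid1 Col23a1 nuclei was lost without pool 2 (-0.48, adjusted p = 0.14). S1pr1, a sphingosine phosphate receptor, had the order of Klf2, with 78.3 ± 14.4 CPM in members, 43.2 ± 12.3 CPM in Grid1 Col23a1 nuclei (0.87) and 147 ± 43.6 CPM in Kcnc2 Wnt9b nuclei (-0.94). The first S1pr1 difference was lost without pool 2 (adjusted p = 0.0796) and the second without pool 1 (0.102). Some genes of the list did not lie between the classes. Cyp1b1 was higher in members than in either class, by 1.36 and 2.92. Cav2 (caveolin-2) averaged 92.3 ± 3.07 CPM in members, 56.9 ± 6.12 CPM in Grid1 Col23a1 nuclei (0.72) and 72.9 ± 19.7 CPM in Kcnc2 Wnt9b nuclei (0.35, adjusted p = 0.242). Piezo1, a mechanically gated channel, averaged 135 ± 12.4, 178 ± 8.62 (-0.37, adjusted p = 0.118) and 229 ± 52.9 CPM (-0.74) in the same order. The called differences were lost without pool 1 for Cav2 (adjusted p = 0.155) and without pool 2 for Piezo1 (0.0973).

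By the rule of size, the largest rises against Grid1 Col23a1 nuclei were those of Dkk2, a secreted Wnt antagonist (298 ± 78.2 against 34.8 ± 4.84 CPM, log2 fold change 3.14), Fam135b (3.17), Lamc3 (2.93), Atp2b2 (2.80) and Spock3 (2.75). The largest falls were those of Hs3st4 (-3.90, or -4.83 without pool 1), Enox1 (35.5 ± 22.6 against 533 ± 10.7 CPM, -3.77), Ptprt (-3.33), Sorcs1 (-3.25, or -4.20 without pool 1) and Adgrg3 (-3.14). Dkk2 stood at 298 ± 78.2 CPM in members and 300 ± 40.5 CPM in Kcnc2 Wnt9b nuclei. All 10 kept their calls under every alternative in which they could be tested, but 7 could not be tested among nuclei with few UMIs of other cells.

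From Kcnc2 Wnt9b nuclei, members differed most by Arfgef3, Dlx6os1 (6.66), Pcdh10 (5.81), Trpc5 (5.70) and Dcdc2a (5.31), all higher, and by Wnt7a, Serpinb9b (-5.34), Nts (-5.14), Adamts8 (-5.09) and Mapt (-4.82), all lower. Dlx6os1, Pcdh10 and Dcdc2a each had 1 UMI in Kcnc2 Wnt9b nuclei, Trpc5 had 4, and Serpinb9b had 3 in members, so the sizes of these fitted differences rest on few counts. Of the 10 genes, 8 could not be tested among nuclei with few UMIs of other cells. With nuclei matched on UMI total, 3 could not be tested. Mapt differed by -4.03 without pool 1 and -5.58 without pool 2. Arfgef3 had 114 UMIs in members and 0 in Kcnc2 Wnt9b nuclei, which makes it at least 12.7-fold higher against a floor of 3 counts over the class. Wnt7a, a Wnt ligand, had 0 UMIs in members and 42 in Kcnc2 Wnt9b nuclei, at least 42.0-fold lower against the same floor; DESeq2 did not call it. Valve endothelial genes stood out as well: Hapln1 was at 14.6 ± 5.25 against 273 ± 64.6 CPM (-4.19) and Nppc at 5.54 ± 5.71 against 95.4 ± 53.1 CPM (-4.02).

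**Figure D4:**
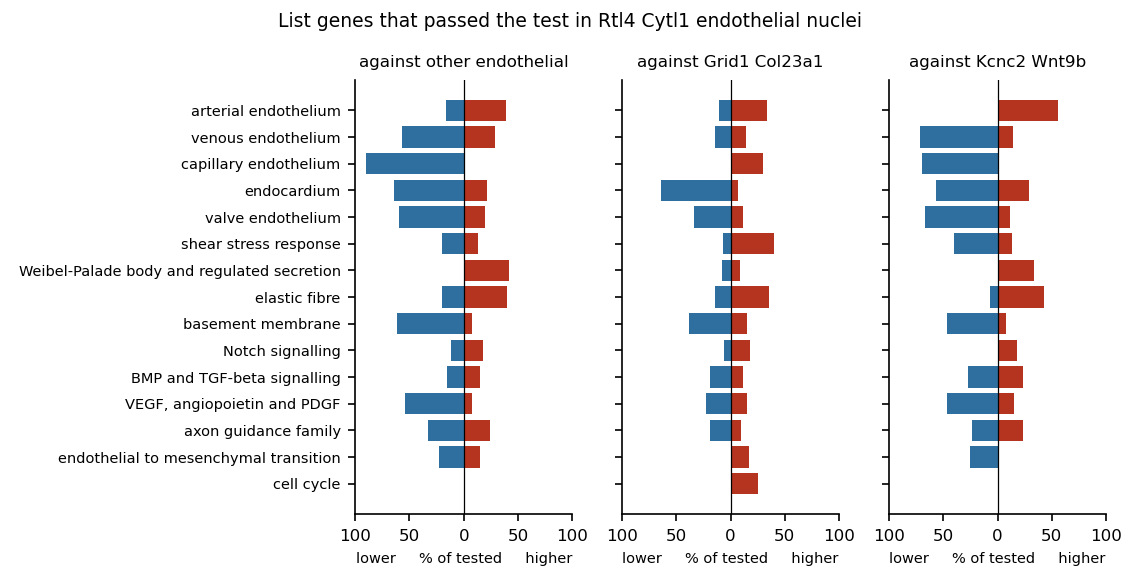
Share of tested genes of 15 lists that were higher (red, to the right) or lower (blue, to the left) in the members at an adjusted p under 0.05, for the comparisons with all other endothelial nuclei, with Grid1 Col23a1 nuclei and with Kcnc2 Wnt9b nuclei. Capillary genes are lower in the first (9 of 10) and the third (7 of 10) panel, with 3 of 10 higher in the second, and arterial genes are divided, with 7 higher and 3 lower of 18, 6 higher and 2 lower, and 10 higher and 0 lower.

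The members were also split by the rule genes themselves, so what follows is a description of nuclei chosen on different genes. Its counts of genes past a p threshold come from edgeR on that split. They describe the split and are no test of it, and no p-value of a single gene is given. The 193 members with neither Cytl1 nor Gkn3, chosen on Rtl4 or Myrip, were set beside 193 members that had Cytl1 or Gkn3, paired within a pool on the nearest UMI total (116, 34 and 43 pairs in pools 1 to 3). At the call rule used above 306 of 4196 genes were past the threshold (7.29%), 243 higher with Cytl1 or Gkn3 (5.79%) and 63 lower (1.5%). This count was not stable: it was 12 without pool 1, 83 without pool 3 and 403 without pool 2, 63 without the highest doublet scores, 24 without the pool as a block, and 0 among 45 pairs with few UMIs of other cells (54 genes at an unadjusted p under 0.05, edgeR).

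Clu, a secreted chaperone, averaged 323 ± 42.2 CPM with Cytl1 or Gkn3 and 80.5 ± 19.6 CPM without, Ahsg 187 ± 57.7 and 44.8 ± 16.5 CPM, and Fabp5, a fatty acid binding protein, 426 ± 244 and 107 ± 14.8 CPM. Eln averaged 18380 ± 2374 and 8951 ± 1291 CPM, a log2 difference of 1.08, which was 0.26 among the 45 pairs with few UMIs of other cells. Rbfox1, a splicing factor, averaged 12.6 ± 8.30 CPM with Cytl1 or Gkn3 and 112 ± 52.6 CPM without. Myh11, a smooth muscle marker, averaged 58.5 ± 56.5 and 134 ± 100 CPM, and 195 genes were past the threshold without nuclei with 2 smooth muscle UMIs, 174 of them among the 306 with the same direction. Of 40 genes of the lists or the rule of size that were past the threshold, 13 could be tested under every alternative and 0 of these stayed past it.

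The EGFP reporter of the Scx allele was sparse in endothelium. It had 65, 16 and 15 UMIs in the members of pools 1 to 3 (17.8, 11.4 and 20.1 CPM) and 47, 29 and 15 UMIs in the others (8.72, 11.4 and 7.47 CPM). The difference passed at 0.88 ± 0.28 (adjusted p = 0.0478, edgeR), with pool 2 nearly equal, and was lost without pool 1 (0.69, adjusted p = 0.50) or pool 3 (0.74, adjusted p = 0.15). EGFP was detected in 9.25% of members, 4.67% of the others and 1.35% of the cardiomyocyte nuclei, or 1.62%, 0.709% and 0.0561% after thinning to 1000 UMIs. Scx itself had 7, 0 and 1 UMIs in the members of pools 1 to 3 and was too sparse to test.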

How the data were processed

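Nuclear RNA of 3 pools was profiled on the 10x Genomics platform. The values the authors deposited are unnormalized UMI counts; per the submitters' processing notes they were made with Cell Ranger 7.0.1 and 7.1.0 on GRCm39, and per the file headers with version 7.1.0. Nuclei were chosen by the rule in the report. Counts were summed per pool and class and tested with edgeR 4.0.16 (quasi-likelihood, TMM, filterByExpr, pool as a block, Benjamini-Hochberg over all genes tested). The pool pairs the sums because both classes come from the same library. The 24 rule genes were left out of calls. Levels are the summed counts scaled to CPM. The script was tested on simulated data. Doublets were scored with Scrublet in scanpy 1.11.5, whose automatic calls (0, 0 and 1 nuclei) were not used; the highest scores were left out as an alternative. Where nothing says how animals were assigned to pools, p-values measure how far the difference between classes varied over these pools. The comparisons with Grid1 Col23a1 and Kcnc2 Wnt9b nuclei drew on 1 estimate of the spread from all endothelial classes together. Members, rule genes and gene lists were chosen with earlier results of these data known. Named genes are the 15 largest rises and 10 largest falls against other endothelial nuclei, 5 and 5 in each other comparison, and genes of the lists; 1 of these genes is not reported here. Nuclei hold unspliced RNA, so levels are not those of whole cells. Sequences are RefSeq promoters of GRCm38.p6.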

Additional observations from a re-analysis of the deposited data

How the results depend on the processing

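The counts of differing genes depended on the setting. Against other endothelial nuclei 1477 genes differed in the reported fit, 666 with DESeq2 1.42.0 and its size factors and 283 without nuclei with 3 or more UMIs of other cells' markers; leaving out 1 pool gave 941 to 1308. Against Grid1 Col23a1 nuclei the 1140 genes became 249 without nuclei with other cells' markers and 539 to 963 without 1 pool. Against Kcnc2 Wnt9b nuclei the 1594 became 666 without those nuclei, 937 with depth-matched nuclei and 988 to 1495 without 1 pool. Within members the 306 became 71 with DESeq2, 63 without the highest doublet scores, 0 without nuclei with other cells' markers, 195 without nuclei with 2 smooth muscle UMIs (chosen after seeing the data) and 12 to 403 without 1 pool. Without the pool as a replicate block the counts were 657, 623 and 24 for the first, second and last comparison and 1192 for Kcnc2 Wnt9b nuclei. Fewer nuclei and genes enter the fit without other cells' markers (112 of 865 members); the cause of the other changes was not tested. The member share was 16.8% after thinning to 1000 UMIs, against 32.2%, and 29.2% to 34.9% without 1 pool.

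Of the list and rule genes called, 95 of 134, 39 of 82, 76 of 109 and 4 of 40 in the 4 comparisons kept their calls in every fit without 1 pool, and 29 of 84, 16 of 62, 49 of 81 and 0 of 13 of those that could be tested under every alternative kept them there. Signs changed without nuclei with other cells' markers for Ltbp1 (0.12), Sparc (-0.43) and Id3 (-0.13) against other endothelial nuclei, Meox2 (-0.77) against Grid1 Col23a1 nuclei, Ltbp3 (-0.0186) against Kcnc2 Wnt9b nuclei, and Bmp4 (-0.59) and Vim (-0.32) within members. Without nuclei with 2 smooth muscle UMIs they changed for Slit3 (0.18) and Mrc1 (0.0389) against other endothelial nuclei.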

Other observations

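Patterning and transcription factor families not on any list were looked at after the values were seen, so they are descriptions of the members against other endothelial nuclei. Of 7 Hox genes with enough counts to test, 5 were higher in members (edgeR, adjusted p under 0.05): Hoxa2, Hoxa3, Hoxa4, Hoxa5 and Hoxb3. Over all genes outside the rule 5.96% were higher. Hoxa5, a regional patterning gene, was at 10.4, 12.8 and 13.4 CPM in members of pools 1 to 3 and at 2.78, 2.35 and 3.49 CPM in the others (log2 fold change 2.10 ± 0.35). Hoxa3, which patterns the pharyngeal arches, was at 30.8 ± 7.84 against 17.0 ± 4.26 CPM (0.97), and Hoxb3 at 24.9 ± 4.04 against 10.8 ± 3.96 CPM (1.07). Dlx5, a homeobox gene, was at 6.27 ± 1.59 against 1.03 ± 0.26 CPM (2.45), and Tbx1, a T-box gene of the outflow region, at 12.6 ± 7.41 against 4.40 ± 0.77 CPM (1.83). Tbx18 was higher (0.91) and Tbx20 lower (-0.28). Hoxa5 and Hoxb3 kept their calls without any 1 pool and with DESeq2. Hoxa3 lost its call without pool 1 (adjusted p = 0.0948), Hoxa2 without pool 1 (0.174) or pool 3 (0.116), Hoxa4 without pool 2 (0.141) or pool 3 (0.0963), Tbx1 without pool 1 (0.523) and Tbx20 without pool 1 (0.0587) or pool 3 (0.0883). DESeq2 did not call Dlx5 (adjusted p = 0.0639), Hoxa2 (0.292), Hoxa3 (0.0977), Hoxa4 (0.107), Tbx1 (0.147) or Tbx20 (0.226). Dlx5 could not be tested without pool 1. Among nuclei with few UMIs of other cells the 5 Hox genes, Dlx5, Tbx1 and Tbx18 could not be tested. Tbx20 lost its call there (-0.53, adjusted p = 0.337, edgeR).

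Collagen IV and laminin chains divided within their families. Col4a3 and Col4a4, chains of a collagen IV trimer known from kidney filters, were higher in members at 86.0 ± 15.6 against 32.2 ± 6.74 CPM (1.36 ± 0.16) and at 143 ± 21.9 against 55.3 ± 7.72 CPM (1.36 ± 0.14), while Col4a1 and Col4a2 were lower. Lamc3 was higher and Lamc1 lower. Of 6 secreted Wnt antagonists tested, Sfrp1, Sfrp2 (207 ± 27.2 against 85.3 ± 28.4 CPM, 1.30) and Dkk2 (1.37) were higher. Of 13 voltage-gated calcium channel subunits, 3 were higher (Cacna2d3, Cacnb4 at 1.64 and Cacna1a at 1.52) and 3 lower (Cacna1e at -1.40, Cacnb2 at -0.37 and Cacna1c at -0.38). Over all genes outside the rule 5.96% were higher and 5.67% lower. Cacna1e lost its call without any 1 of the 3 pools (adjusted p = 0.104 to 0.161) and Cacnb2 without pool 3 (0.286). Among nuclei with few UMIs of other cells the difference was 0.82 for Col4a4 (adjusted p = 0.219) and 0.77 for Cacna1a (0.387).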
